A study of Homo sapiens and Mus musculus with 7 samples.

Results

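The genes described here are 40 genes of glucose uptake, glycolysis, lactate handling, gluconeogenesis and the response to low oxygen. They were taken as listed genes and found on the arrays through probe sets annotated to that symbol alone (in mouse, the same symbol with case ignored). Of the 40 genes, 38 had such a probe set on the human arrays (80 probe sets, among 19773 genes in all) and 36 on the mouse arrays (79 probe sets, among 18193 genes), and 35 had one on both. SLC16A3 and CA9 had no probe set of their own symbol on the human arrays, and GPI, ENO1, CA9 and BNIP3L had none on the mouse arrays.

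The study ran 7 Affymetrix arrays on total RNA, 1 for each group. HeyA8, an ovarian cancer cell line, was measured with an empty-vector control (pLKO) and with stable knockdown of FAS, the death receptor CD95, by hairpin shRNA4 or hairpin shRNA6. HepG2, a liver cancer cell line, was measured with pLKO and with shRNA6. Liver tissue came from a wild-type and a Fas knock-out male mouse, both of strain C57/BL6 and 2 months old. The genotype field calls the hairpin lines knock-outs while their descriptions call them stable knock-downs. Culture oxygen, glucose and cell density, feeding state, the allele of the Fas knock-out, and whether a liver sample held more than 1 animal are not stated in the labels. Each cell type is a single line, so a difference between HepG2 and HeyA8 compares these lines and not liver with ovarian cancer.

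Values are MAS5 signals, in arbitrary units on a linear scale, and each array was scaled to a 2% trimmed mean near 500. Array medians were between 58.0 and 63.5 in human and between 75.4 and 80.1 in mouse. Differences are in log2(signal + c), with c at 12.6 in human and 20.5 in mouse, which understates the differences of dim genes. Each gene is represented by its brightest probe set, one marked _x_at (which may bind related transcripts) only where there was no other. Signals of different genes rest on different probes and are not ranked against each other. FAS gave 2104, 1184 and 856 in HeyA8 pLKO, shRNA4 and shRNA6, 1087 and 631 in HepG2 pLKO and shRNA6, and 560 and 169 in wild-type and knockout liver. The hepatocyte markers measured were above the median for 10 of 10 genes on both HepG2 arrays and for 9 of 9 on both liver arrays, and for 1 or 2 of 10 in HeyA8, where 9 of 9 mesenchymal or ovarian markers were above it (7 and 5 of 9 in HepG2).

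Glycolysis splits glucose to pyruvate, and most of its steps can be carried out by several isoenzymes whose genes are used by different tissues. When oxygen is short, prolyl hydroxylases of the EGLN family no longer mark the alpha subunits HIF1A and EPAS1 for destruction, and these factors raise genes of glucose uptake, glycolysis, lactate formation and vessel growth. Hepatocytes take up and release glucose through SLC2A2, use the liver form of pyruvate kinase, PKLR, and run the pathway backwards to glucose with PCK1, FBP1 and G6PC1. Many tumour cells in contrast use SLC2A1, HK2, PKM and LDHA.

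The hypoxia-inducible factors bind a short core sequence, usually written ACGTG or GCGTG, and the sequences just before the start of a few members show how unevenly those letters occur in the set. They are RefSeq promoter sequences of build GRCh38.p14, 250 bases up to the transcription start on the gene's own strand, with ACGTG and GCGTG and their reverse complements in capitals. CACGTG reads as ACGTG on both strands and was counted once for each. LDHA and LDHB make the alternative lactate dehydrogenase subunits, HK2 is the inducible hexokinase and ALDOC an aldolase known from brain. The window of LDHA is chr11:18394313-18394562 (plus strand) with 5 matches of ACGTG and 0 of GCGTG, that of LDHB is chr12:21657843-21658092 (minus strand) with 0 and 0, that of the downstream start of HK2 is chr2:74834920-74835169 (plus strand) with 4 and 2, and that of ALDOC is chr17:28576896-28577145 (minus strand) with 3 and 2.
LDHA: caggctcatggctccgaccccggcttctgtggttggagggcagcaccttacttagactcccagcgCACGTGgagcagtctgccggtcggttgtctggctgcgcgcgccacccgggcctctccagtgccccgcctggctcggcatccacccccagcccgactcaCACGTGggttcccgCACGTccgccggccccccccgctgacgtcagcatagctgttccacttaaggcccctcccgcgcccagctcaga
LDHB: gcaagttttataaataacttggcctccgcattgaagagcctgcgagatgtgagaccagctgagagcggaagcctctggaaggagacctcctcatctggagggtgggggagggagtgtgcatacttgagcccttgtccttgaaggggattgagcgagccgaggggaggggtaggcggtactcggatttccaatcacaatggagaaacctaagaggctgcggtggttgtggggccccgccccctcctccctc
HK2: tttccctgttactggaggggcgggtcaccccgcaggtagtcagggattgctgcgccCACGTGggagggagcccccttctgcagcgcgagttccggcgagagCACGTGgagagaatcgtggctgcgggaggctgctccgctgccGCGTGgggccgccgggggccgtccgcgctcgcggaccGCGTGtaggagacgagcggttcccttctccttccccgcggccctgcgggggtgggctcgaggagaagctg
ALDOC: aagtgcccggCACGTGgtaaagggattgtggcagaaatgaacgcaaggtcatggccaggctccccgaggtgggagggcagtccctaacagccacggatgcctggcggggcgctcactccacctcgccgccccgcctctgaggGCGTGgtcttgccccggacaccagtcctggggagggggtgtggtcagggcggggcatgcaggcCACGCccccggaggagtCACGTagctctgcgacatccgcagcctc

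Windows were found for 35 members, 63 windows in all. ACGTG on either strand was present in 36.5% of them and in 18.5% of all 35116 windows of that length, GCGTG in 30.2% and 32.2%, and at least 1 of them in 57.1% and 43.2%. A second start of LDHA held 1 match, of GCGTG, and the first start of HK2 held 2 of ACGTG and 1 of GCGTG. BNIP3 held 2 and 4, PGK1 held 2 and 1, and ANKRD37 held 3 of ACGTG. Of the 7 windows of HK1 only 1 held a match, and neither letter string was in the single windows of SLC2A1, SLC2A2, PKM, PGAM1, EGLN3 and P4HA2. These are matches of letters in short windows and not binding sites.

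The widest differences among members between HepG2 and HeyA8 were in isoenzyme and transporter genes. HeyA8 carried HK1 and LDHB at signals far above the array median where HepG2 was below it. PFKM and PFKP were also far higher in HeyA8, though above the median on both HepG2 arrays. HepG2 carried SLC2A2, PKLR and ALDOC where HeyA8 had little. PGK1, PGAM1, ENO1 and LDHA were bright in both lines and did not pass the test. By limma over the 5 human arrays, with the line and the knockdown as terms, 27 of the 38 members passed an adjusted p of 0.05, 17 higher in HepG2 and 10 lower. The share was 71.1%, beside 58.0% of all 13936 genes tested (30.0% higher and 28.0% lower), so a call by itself says little here, and counts of calls below are read against these shares. At least 2-fold and called were 16 members, 42.1% beside 34.1% of all genes. The p-values measure the spread between these arrays, which comes from the difference between the hairpins and from the knockdown differing between lines, not from replicate cultures, and may be technical. SLC2A2, PKLR, EGLN3 and PCK1 were kept through HepG2 arrays alone, and HK1 and LDHB through HeyA8 arrays alone, so their filter and their difference are not independent, and they are described with no p-value. Without them 23 of 32 members were called, 71.9% beside 57.7% of the 10793 genes above the median on an array of each line. Whole-culture RNA cannot tell more expressing cells from more RNA per cell.

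LDHB encodes the heart-type subunit of lactate dehydrogenase and had the widest gap of the set. Its signals were 18656, 21041 and 19631 in HeyA8 pLKO, shRNA4 and shRNA6, and 2.79 and 35.1 in HepG2 pLKO and shRNA6. The lines were far apart and both HepG2 arrays lay below their median. The fitted difference was -9.38 ± 0.29 (SE, 5 arrays). Both human LDHB probe sets are of the kind that may also bind related transcripts, and the other gave 16561, 18990 and 17569 in HeyA8 and 42.3 and 49.6 in HepG2. Because the HepG2 signals are below the median, the size depends on the pseudocount and settings, and ran from -10.25 to -7.94 over the alternatives. LDHA, the muscle-type subunit that favours lactate formation, was at 23927, 26394 and 25657 in HeyA8 and 28197 and 25508 in HepG2, where the lines overlapped and the difference was 0.09 ± 0.09 (SE).

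Hexokinases trap glucose as its phosphate. HK1, the housekeeping form, was at 3727, 3481 and 3538 in HeyA8 and 33.1 and 43.4 in HepG2, a difference of -6.14 ± 0.15 (SE), and from -6.39 to -5.21 over the alternatives. HK2 ran the other way, at 2337, 2503 and 2410 in HeyA8 and 4732 and 4162 in HepG2, a difference of 0.87 ± 0.10 (SE, adjusted p 0.000161 by limma). HepG2 thus had HK2 above its median and HK1 below it, while HeyA8 had both above. Both other HK2 probe sets were dimmer and had lower means in HepG2, and when probe sets were averaged the HK2 difference was 0.03 and was not called.

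Phosphofructokinase commits sugar to glycolysis, and its muscle, platelet and liver forms are PFKM, PFKP and PFKL. PFKM was at 4465, 5103 and 4364 in HeyA8 and 110 and 96.6 in HepG2, a difference of -5.33 ± 0.14 (SE). PFKP was at 6371, 6354 and 6007 in HeyA8 and 420 and 284 in HepG2, a difference of -4.17 ± 0.13 (SE). PFKL was at 273, 307 and 198 in HeyA8 and 397 and 433 in HepG2, a difference of 0.67 ± 0.23 (SE, adjusted p 0.0371 by limma). The muscle and platelet forms were thus lower in HepG2, with adjusted p-values of 5.37e-08 and 1.61e-07, and the liver form was slightly higher. The PFKL call was lost when any array but HeyA8 shRNA4 was left out (adjusted p up to 0.314 over the alternatives). A brighter PFKL probe set that may bind related transcripts gave 408, 592 and 439 in HeyA8 and 1007 and 862 in HepG2. With such probe sets allowed the PFKL difference was 0.97. A dim further probe set of PFKP gave 35.2, 37.3 and 71.9 in HeyA8 and 48.3 and 65.0 in HepG2, without the difference.

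Aldolase splits the doubly phosphorylated sugar. ALDOC was at 54.9, 45.1 and 58.3 in HeyA8 and 637 and 527 in HepG2, a difference of 3.16 ± 0.26 (SE, adjusted p 1.96e-05 by limma). ALDOA, the general form, was at 13615, 14316 and 14654 in HeyA8 and 21139 and 18694 in HepG2, a smaller difference of 0.48 ± 0.09 (SE, adjusted p 0.00187). HeyA8 had ALDOA bright and ALDOC near or below the array median, while HepG2 had both above it. ALDOA was read from a probe set that may bind related transcripts.

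Pyruvate kinase makes pyruvate in the last step. PKLR was at 13.2, 10.6 and 10.3 in HeyA8 and 178 and 315 in HepG2, a difference of 3.43 ± 0.43 (SE), and from 2.11 to 3.99 over the alternatives. PKM, the form of most tissues and tumours, was at 1332, 1277 and 1312 in HeyA8 and 945 and 922 in HepG2, a difference of -0.49 ± 0.11 (SE, adjusted p 0.00686 by limma). HepG2 therefore had both genes above its median, and HeyA8 had PKM alone. The PKM call was lost with averaged probe sets and when HeyA8 pLKO or either HepG2 array was left out (adjusted p up to 0.101). Neither enolase gene, of the step before, was called. ENO1 was at 23332, 25971 and 23913 in HeyA8 and 22404 and 20111 in HepG2, and ENO2, the neuronal form, at 452, 655 and 831 against 631 and 565, with adjusted p-values of 0.0848 and 0.959 by limma. ENO1 was called, lower in HepG2, under quantile normalization and without HeyA8 pLKO or HepG2 pLKO.

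**Figure D1:**
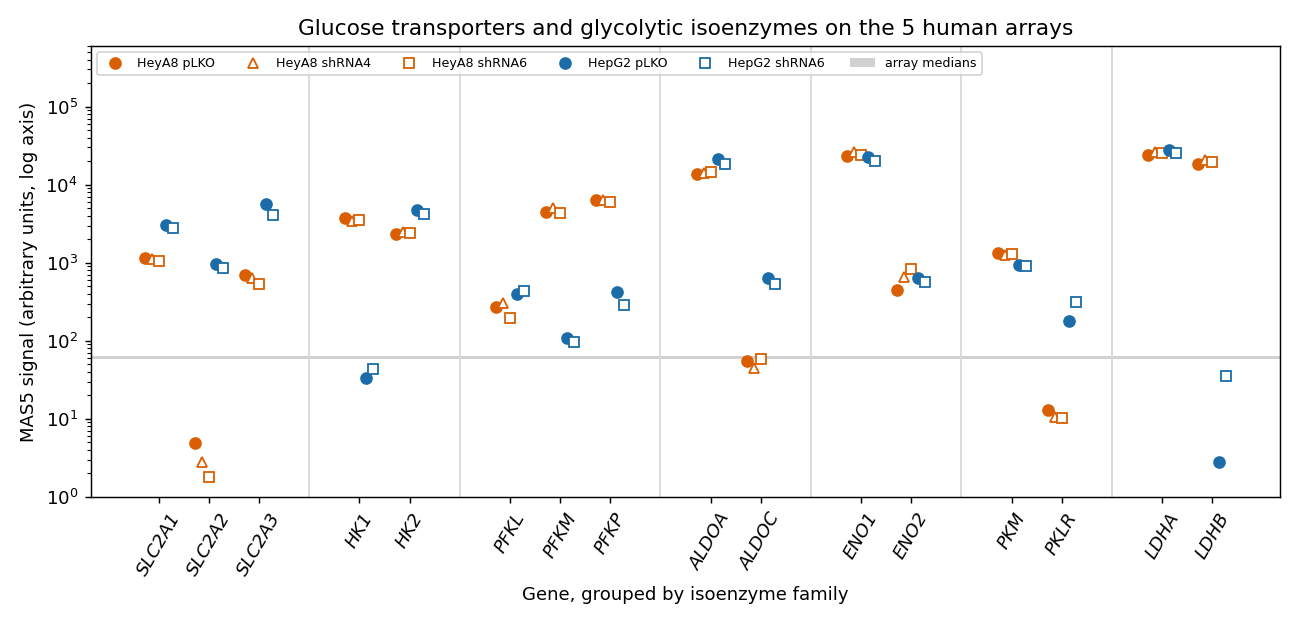
MAS5 signal on a log axis for the glucose transporters and 6 isoenzyme families on the 5 human arrays, 1 point per array, with HeyA8 in orange, HepG2 in blue, filled points for pLKO and the range of array medians as a grey line. SLC2A2 and PKLR lie above the grey line in HepG2 alone, HK1 and LDHB lie above it in HeyA8 alone, and the signals are comparable between arrays for 1 gene but not between genes.

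The steps between aldolase and enolase, and the isomerase, differed little between the lines. PGK1, which makes the first ATP, was at 16219, 16602 and 17139 in HeyA8 and 16290 and 15324 in HepG2, a difference of -0.08 ± 0.08 (SE). PGAM1, the mutase, lay between 14954 and 17435 on the 5 arrays, a difference of -0.18 ± 0.08 (SE, adjusted p 0.0695 by limma). TPI1, the triose isomerase, was at 17386, 17231 and 20678 in HeyA8 and 13507 and 12984 in HepG2, a difference of -0.46 ± 0.10 (SE, adjusted p 0.00475). GPI, the sugar phosphate isomerase, was at 3165, 3497 and 3629 in HeyA8 and 4481 and 3992 in HepG2, a difference of 0.31 ± 0.11 (SE, adjusted p 0.0381) that missed the threshold in 6 of the 14 alternatives, among them leaving out HeyA8 pLKO, HeyA8 shRNA6 or HepG2 pLKO. Over the 17 glycolytic enzymes 6 were called higher in HepG2 and 6 lower, near the shares of all genes (30.0% and 28.0%), with a median difference of -0.08 beside 0.05 over all genes. PKLR among the higher, and HK1 and LDHB among the lower, were kept through the arrays of a single line.

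All 3 glucose transporters were higher in HepG2. SLC2A1, the general transporter that hypoxia raises, was at 1148, 1116 and 1065 in HeyA8 and 3093 and 2778 in HepG2, a difference of 1.37 ± 0.11 (SE, adjusted p 1.42e-05 by limma). SLC2A2, the low-affinity transporter of hepatocytes, was at 4.85, 2.84 and 1.80 in HeyA8 and 964 and 861 in HepG2, a difference of 5.85 ± 0.35 (SE) that ran from 3.92 to 6.92 over the alternatives, since the HeyA8 signals were far below the median. SLC2A3, a high-affinity transporter known from neurons, was at 706, 646 and 538 in HeyA8 and 5742 and 4037 in HepG2, a difference of 2.86 ± 0.13 (SE, adjusted p 8.59e-07). The lines did not overlap for any of the 3. The other probe sets of SLC2A1 and SLC2A3 above the median were also higher in HepG2. Among the 16 members called at least 2-fold, 9 had another probe set above a median, and 12 of those 13 probe sets had the same direction, the exception being the dim one of PFKP.

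Regulators of flux did not move together. PFKFB3, which makes the sugar phosphate that activates phosphofructokinase, was at 2139, 2201 and 2365 in HeyA8 and 313 and 246 in HepG2, a difference of -2.97 ± 0.14 (SE, adjusted p 1.07e-06 by limma). Its relative PFKFB4 was at 162, 127 and 179 in HeyA8 and 402 and 343 in HepG2, a difference of 1.18 ± 0.23 (SE, adjusted p 0.00284), and was not called with averaged probe sets. PDK1, which holds pyruvate back from the mitochondrion by blocking pyruvate dehydrogenase, was at 1246, 1214 and 1018 in HeyA8 and 1735 and 1526 in HepG2, a difference of 0.46 ± 0.12 (SE, adjusted p 0.0132) that missed the threshold in 5 of the 14 alternatives, among them leaving out HeyA8 pLKO or either HepG2 array.

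Of the oxygen-sensing genes only EPAS1 was called. EPAS1, the alpha subunit also known as HIF-2alpha, was at 1570, 1517 and 1752 in HeyA8 and 8781 and 9958 in HepG2, a difference of 2.55 ± 0.10 (SE, adjusted p 5.01e-07 by limma). HIF1A was at 9787, 11018 and 8688 in HeyA8 and 11757 and 11176 in HepG2, a difference of 0.22 ± 0.11 (SE, adjusted p 0.124). EGLN1, the main oxygen-sensing hydroxylase, was between 2299 and 3424 on the 5 arrays with overlapping lines, and EGLN3, a hydroxylase that the factors themselves raise, was dim, between 17.3 and 68.0. The lines thus differed in the mRNA of 1 alpha subunit, which says nothing of the proteins. HIF1A was called, higher in HepG2, under quantile normalization and without HeyA8 shRNA4.

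Hypoxia-responsive genes outside glycolysis went both ways, 5 called higher in HepG2 and 3 lower of 8 kept (30.0% and 28.0% of all genes). VEGFA, the vessel growth factor, was at 1323, 868 and 1041 in HeyA8 and 3549 and 3273 in HepG2, a difference of 1.62 ± 0.13 (SE, adjusted p 2.24e-05 by limma), and its 3 other probe sets had the same direction. P4HA2, a collagen prolyl hydroxylase, was at 631, 770 and 499 in HeyA8 and 2540 and 1969 in HepG2, a difference of 1.79 ± 0.19 (SE). P4HA1, a hydroxylase of the same kind, was at 1869, 1895 and 1741 against 2950 and 2766, a difference of 0.63 ± 0.10 (SE). The P4HA2 and P4HA1 calls had adjusted p-values of 0.000101 and 0.001 by limma and were lost with averaged probe sets. BNIP3, which marks mitochondria for removal, was at 6138, 5606 and 6698 in HeyA8 and 8297 and 9092 in HepG2, and ANKRD37 at 250.4, 279 and 239.8 against 378 and 411, differences of 0.51 ± 0.10 and 0.61 ± 0.19 (SE, adjusted p 0.00322 and 0.0222).

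The genes lower in HepG2 included a close relative of BNIP3. BNIP3L, with the same role, was at 3832, 3943 and 3305 in HeyA8 and 1705 and 1192 in HepG2, a difference of -1.41 ± 0.13 (SE, adjusted p 4.99e-05 by limma). NDRG1, a stress- and hypoxia-responsive gene, was at 3509, 2238 and 2230 in HeyA8 and 635 and 753 in HepG2, a difference of -1.93 ± 0.19 (SE, adjusted p 5.67e-05). ADM, a vasodilator peptide, was at 2155, 3070 and 2068 in HeyA8 and 1471 and 1282 in HepG2, a difference of -0.79 ± 0.18 (SE, adjusted p 0.0065). The hypoxia-responsive genes were thus called in both directions. The calls of TPI1, BNIP3 and ADM were lost without HepG2 shRNA6, with adjusted p up to 0.105, 0.0843 and 0.174 by limma, and that of ANKRD37 without any array but HeyA8 shRNA4, with adjusted p up to 0.184.

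None of the 3 gluconeogenic genes was called. G6PC1, which releases glucose from its phosphate, was at 33.3, 45.6 and 67.0 in HeyA8 and 60.2 and 87.2 in HepG2. PCK1, the cytosolic enzyme that starts gluconeogenesis, was at 12.8, 1.93 and 2.20 in HeyA8 and 13.5 and 138 in HepG2. FBP1, which reverses the phosphofructokinase step, was at 44.1, 86.2 and 35.9 against 113 and 61.6. All 10 hepatocyte markers measured were above the median on both HepG2 arrays, as was G6PC1, while PCK1 and FBP1 were above it on 1. PCK1 was kept through the HepG2 shRNA6 array alone and is described with no p-value. Its difference of 1.94 ± 0.84 (SE) ran from 0.96 to 3.36 over the alternatives. G6PC1 passed the threshold, higher in HepG2, with averaged probe sets.

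**Figure D2:**
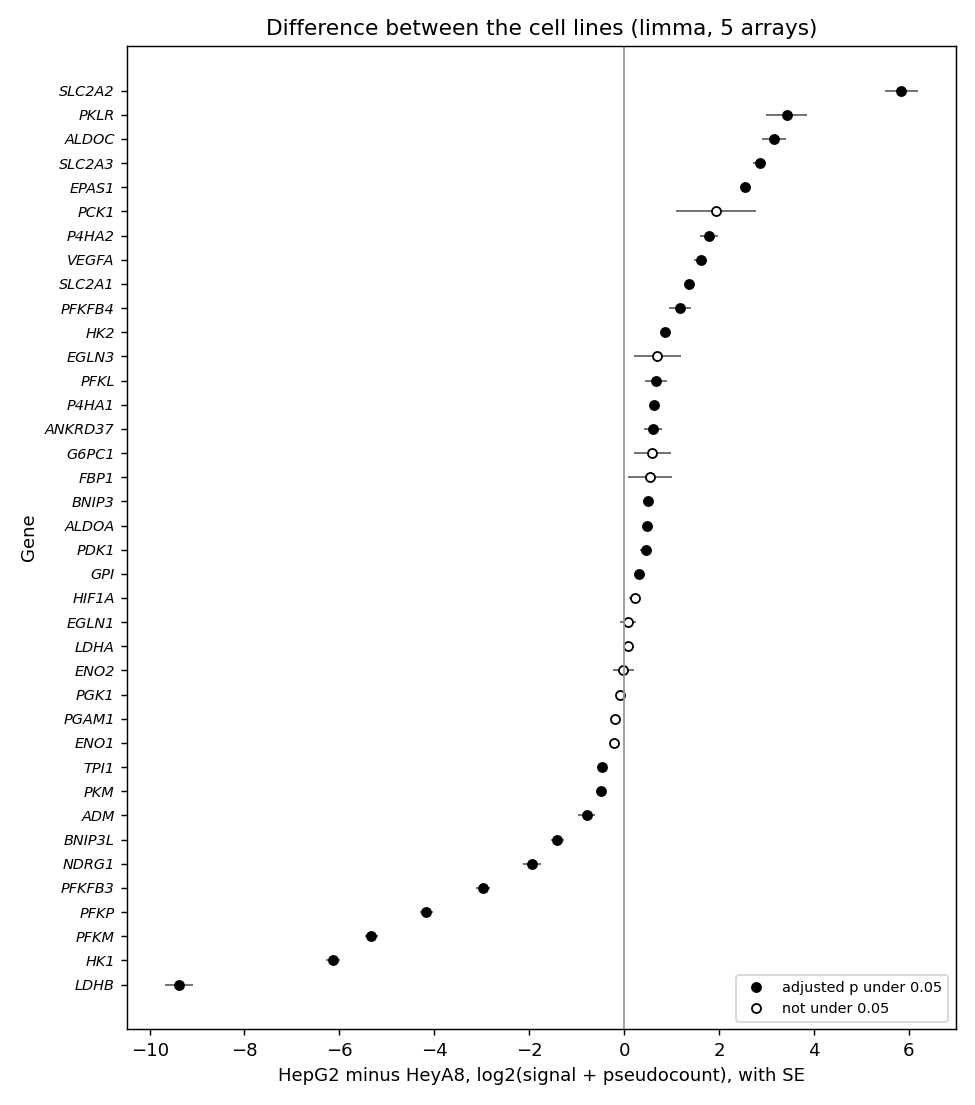
Fitted difference between HepG2 and HeyA8 in log2(signal + pseudocount) for the 38 members kept, with the standard error from limma over 5 arrays, filled where the adjusted p was under 0.05. The members run from LDHB at -9.38 to SLC2A2 at 5.85, and PCK1, EGLN3, FBP1 and G6PC1, with signals of at most 138, have wide errors.

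Other genes of these pathways came from lists wider than the 40, and their calls stand beside 30.0% of all genes called higher in HepG2 and 28.0% lower. Of 20 kept genes of glycolysis and pyruvate use 11 were called higher in HepG2 and 4 lower. GPD2, the mitochondrial glycerol phosphate dehydrogenase that passes glycolytic electrons to the respiratory chain, was at 1534, 1560 and 1598 in HeyA8 and 3.32 and 3.37 in HepG2, a difference of -6.63 ± 0.20 (SE). Being below the median in HepG2, GPD2 was kept through HeyA8 arrays alone and is described with no p-value. MPC1, a subunit of the mitochondrial pyruvate carrier, was at 752, 775 and 736 against 11063 and 12695, a difference of 3.97 ± 0.10 (SE). PDP1, the phosphatase that reactivates pyruvate dehydrogenase, was lower in HepG2 by a difference of -3.68, and GCKR, the hepatic regulator of glucokinase, higher by 3.71. GCKR and some others of the genes called higher were kept through HepG2 arrays alone. The counts of calls include these genes and GPD2, whose filter and difference are not independent.

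Of 7 kept genes of gluconeogenesis and glycogen 6 were called higher in HepG2 and 1 lower, beside the same shares of all genes. PCK2, the mitochondrial counterpart of PCK1, was at 855, 681 and 827 in HeyA8 and 6674 and 6471 in HepG2, a difference of 3.03 ± 0.12 (SE, adjusted p 4.55e-07 by limma), so this form was above the median in HepG2 and PCK1 was not on the control array. PPARGC1A, a coactivator of the fasting response, and PC, pyruvate carboxylase, differed by 3.88 and 3.47. Both are in the count of calls but were kept through HepG2 arrays alone, so their filter and their difference are not independent. Of 24 kept further hypoxia genes 9 were called higher and 7 lower, with EPO (erythropoietin), dim in HeyA8 and at 310 and 478 in HepG2, at 4.04 and EDN1 (endothelin) at -2.48. These counts include EPO, kept through HepG2 arrays alone, and ANGPTL4, kept through HeyA8 arrays alone. Of 12 genes that feeding raises in liver 8 were called higher in HepG2 and 1 lower, from KHK, which phosphorylates fructose, at 5.97 to ME1, the malic enzyme, at -7.65. ME1 was at 4729, 4495 and 4410 in HeyA8 and 1.37 and 20.4 in HepG2. Among the called genes ME1 was kept through HeyA8 arrays alone, and KHK, MLXIPL and ARRDC4 through HepG2 arrays alone. Their filter and their difference are therefore not independent either.

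FAS knockdown was set against these levels in a fit common to both lines. By limma 0 of 38 members passed an adjusted p of 0.05, beside 0% of the 13936 genes, and 3 members (SLC2A3, LDHB and VEGFA) were among the 568 genes with an unadjusted p below 0.05. SLC2A3 had a common effect of -0.36 ± 0.13 (SE) and VEGFA of -0.32 ± 0.13 (SE), each with an adjusted p of 0.991. For the difference of the effect between the lines, limma called 0 members and 0% of all genes, with 3 members (LDHB, NDRG1 and PCK1) among the 613 genes with an unadjusted p below 0.05. NDRG1 had the widest of these differences among members bright in both lines, 0.89 ± 0.24 (SE, adjusted p 0.999). In that fit the spread is the difference between the HeyA8 hairpins alone. LDHB was in both lists with HepG2 signals of 2.79 and 35.1, each below the array median. Its other probe set had a HepG2 log2 ratio of 0.18. The single comparisons below have 1 array per group, no test and no replicate check, and both HeyA8 hairpins share 1 control array.

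In HeyA8 no member was 2-fold apart from the control with either hairpin, of 32 kept with shRNA4 and 33 with shRNA6, where 4.76% and 4.22% of all genes were. At 1.5-fold there were 3 members with shRNA4 (VEGFA, NDRG1 and FBP1), 9.38% beside 12.9% of all genes, and 3 with shRNA6 (ENO2, NDRG1 and G6PC1), 9.09% beside 10.9%. NDRG1 was the 1 member of 31 past 1.5-fold the same way with both hairpins, 3.23% beside 4.14% of all genes. Its signal went from 3509 to 2238 and 2230, log2 ratios of -0.65 and -0.65. VEGFA, from 1323 to 868 and 1041, was at -0.60 and -0.34, but its other probe sets above the median with shRNA4 ranged from -0.14 to 0.28. ENO2, from 452 to 655 and 831, was at 0.53 and 0.86. FBP1 and G6PC1 were dim.

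More of the kept glycolytic enzymes of HeyA8 were above 0 than below, 10 of 15 with shRNA4 and 11 of 16 with shRNA6 (53.4% and 51.2% of all genes), with medians of 0.10 and 0.06. Bright genes in general leaned the same way: of the brightest 5% of genes in each comparison 27.6% and 17.4% were lower than in the control, with medians of 0.10 and 0.08, and the 8 members among them had medians of 0.11 and 0.08. Over all kept members the medians were 0.04 and 0.02, beside 0.03 and 0.01 over all genes, and they turned to -0.0089 and -0.0040 under quantile normalization. Between the hairpins the same 15 enzymes differed by a median size of 0.08. Of 23 kept further hypoxia genes 16 were higher with shRNA4 and 11 with shRNA6, beside 53.4% and 51.2% of all genes. DDIT4, a stress-induced inhibitor of mTOR signalling, went from 1665 to 587 and 911, log2 ratios of -1.48 and -0.86. BHLHE40, a hypoxia- and clock-linked repressor, went from 2388 to 1368 and 1095, ratios of -0.80 and -1.12. These were the lowest of that list with both hairpins and stood beside NDRG1 and VEGFA, while FAM162A was at -0.77 and -0.14, EDN1 at 0.18 and 0.68 and ADM at 0.51 and -0.06.

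In HepG2 with shRNA6 the members leaned downward, 26 of 36 kept, with a median of -0.15 beside -0.01 over all genes (48.3% of them higher). All 3 transporters were lower, SLC2A3 from 5742 to 4037 (-0.51), SLC2A1 from 3093 to 2778 (-0.15) and SLC2A2 from 964 to 861 (-0.16). Of 15 glycolytic enzymes 13 were lower, among them PFKP from 420 to 284 (-0.54), ALDOA from 21139 to 18694 (-0.18) and LDHA from 28197 to 25508 (-0.14). The 3 flux regulators were lower too, PFKFB3 from 313 to 246 (-0.33). Most of these ratios are small. The brightest 5% of genes shared part of the lean, with 66.3% lower and a median of -0.04, and the 9 members among them had a median of -0.07 with 7 lower. After quantile normalization the members' median was -0.09 with 25 of 36 lower, and with arrays scaled to equal medians it was -0.26, where the median of all genes moved by -0.11 to -0.12.

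Against that lean, PCK1 was the only HepG2 member past 2-fold, 2.78% of those kept beside 5.22% of all genes. Its signal went from 13.5 to 138, a log2 ratio of 2.53 (3.00 with the smaller and 1.42 with the larger pseudocount), from below the array median to above it on a single array. PKLR went from 178 to 315 (0.78), with its other probe sets from 12.1 to 72.7 and from 71.4 to 82.1. Past 1.5-fold were PKLR, PCK1 and FBP1, 8.33% beside 12.6% of all genes, and FBP1 ran the other way, from 113 to 61.6 (-0.76). G6PC1 went from 60.2 to 87.2 (0.46), and its dimmer probe set from 33.5 to 135. The liver-type genes PCK1, PKLR and G6PC1 were thus higher on the shRNA6 array while SLC2A2 and FBP1 were lower. In the wider lists, of 11 kept genes that feeding raises in liver 4 were higher with shRNA6 and 7 lower (48.3% of all genes higher). KHK went from 1168 to 1958 (0.74) and MLXIPL, a carbohydrate-responsive transcription factor of liver, from 213 to 423 (0.95), while TXNIP went from 2742 to 1870 (-0.55). Of 19 kept further genes of glycolysis and pyruvate use 13 were higher and 6 lower, and SLC16A7, a monocarboxylate transporter, went from 92.1 to 200 (1.02). Of 22 kept further hypoxia genes 10 were higher and 12 lower. LOX, a hypoxia-responsive collagen crosslinking enzyme, went from 1293 to 2943 (1.18) and EDN1 from 154 to 83.5 (-0.80). All 10 hepatocyte markers measured were above the median on both HepG2 arrays with summed signals of 164387 and 170825, of which 4 were higher and 6 lower with shRNA6 (FGB from 5792 to 12105, TTR from 3227 to 2786, ALB from 28770 to 26700), and the part of such marker differences in these results was not tested.

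**Figure D3:**
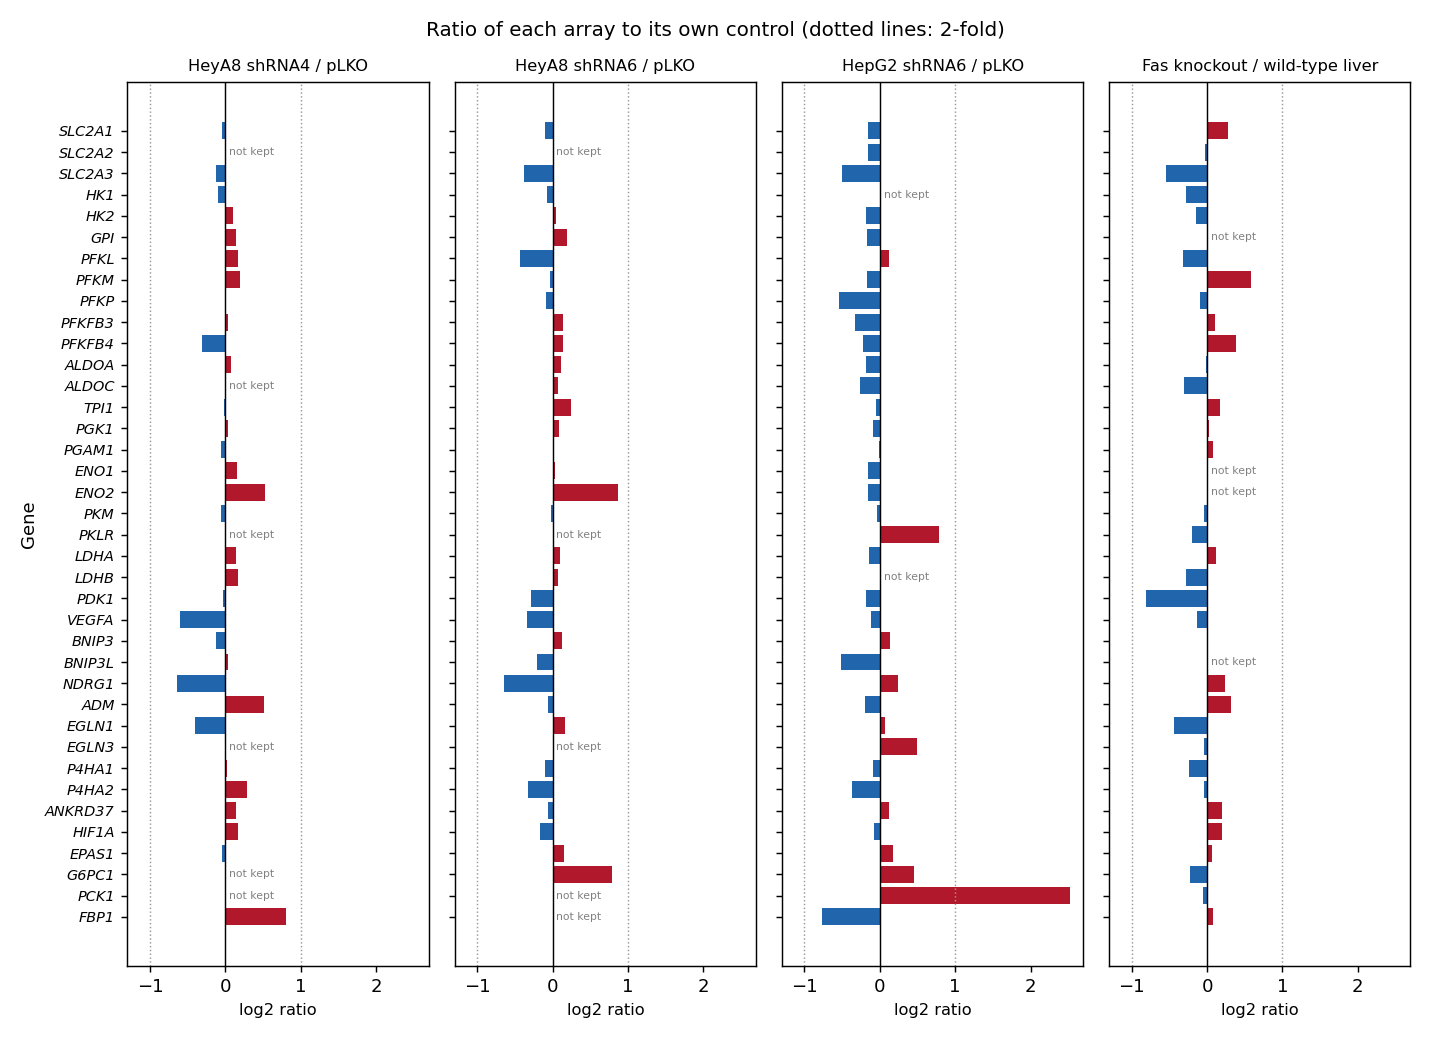
Log2 ratio of signal plus pseudocount for each member against its own control, 1 panel per comparison, with 1 array on each side and dotted lines at 2-fold. Bars in HepG2 lie mostly left of 0 with PCK1 at 2.53 as the longest, NDRG1 is at -0.65 in both HeyA8 panels, and PDK1 at -0.81 is the widest in liver.

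In mouse liver the genes of the hepatic isoenzymes were above the array median in both genotypes. Slc2a2 was at 16888 in wild type and 16538 in the knockout, Pklr at 2612 and 2274, and Aldoc at 1482 and 1199. So were the gluconeogenic genes, G6pc1 (annotated as G6pc) at 15951 and 13586, Pck1 at 22986 and 22165 and Fbp1 at 30255 and 31914. Of the other forms, Hk2 was at 227 and 203, Hk1 at 277 and 225, Pkm at 125 and 122, Ldha at 17148 and 18606 and Ldhb at 559 and 457, all above the median, while Slc2a3, at 91.5 and 56.3, was above it in wild type alone. Epas1 was at 8401 and 8786 and Hif1a at 2206 and 2542. Signals of the mouse arrays are not on the scale of the human ones. In whole tissue, fewer cells of a type and less RNA per cell cannot be told apart.

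Between the genotypes no member was 2-fold apart, of 34 kept, beside 4.34% of all genes, and 2 were past 1.5-fold, 5.88% beside 12.5%. Pdk1 went from 4403 to 2497, a log2 ratio of -0.81, and a further probe set of it from 1505 to 863 (-0.79), but another bright probe set went from 1491 to 1509 (0.02), so its probe sets disagreed. Pfkm, measured by a single probe set, went from 400.1 to 612 (0.59). Slc2a3 was at -0.54 but dim, and Vegfa at -0.13 on its brightest probe set and -0.80 on the other. Egln1 was at -0.43, and its other probe set at -0.34. Eno2 and Slc16a3, the lactate exporter, were below the median on both arrays, at 8.83 and 58.3 and at 35.4 and 16.9, and were left out.

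As groups the members stayed near all genes in liver, with a median of -0.03 beside -0.02, and 14 of 34 higher. Scaling to equal medians turned that sign (0.05 beside 0.07), the median of all genes moving by 0.09. Of 14 glycolytic enzymes 5 were higher, and of the 3 gluconeogenic genes 1. Of 13 genes that feeding raises in liver 10 were higher in the knockout (47.3% of all genes), with Fasn, the fatty acid synthase, from 3994 to 5882 (0.56) and Txnip, a glucose-responsive arrestin, from 4308 to 3025 (-0.51), and of 9 that fasting raises 5 were higher. The median of the feeding list was 0.07. Pdk4, a relative of Pdk1 that fasting raises, went from 305 to 173 (-0.74), while Fgf21 of the same list went from 233 to 341 (0.51). Of 22 kept further hypoxia genes 13 were higher and 9 lower (47.3% of all genes higher). Tfrc of that list went from 818 to 1331 (0.69), and Hilpda, a hypoxia-responsive lipid droplet protein, from 295 to 172 (-0.71). Summed signals of other cell types also differed between the livers: macrophage markers 17938 and 14489 (5 of 5 above the median on both), endothelial 5280 and 4272 (5 of 5), stellate 8472 and 7192 (5 and 6 of 6), lymphocyte 1039 and 884 (2 of 7), cholangiocyte 379 and 211 (2 and 1 of 4), neutrophil 609 and 431 (2 of 2) and erythroid 1318 and 1850 (1 of 2). The cholangiocyte markers went both ways. Epcam went from 198 to 53.5 and Sox9 from 147 to 10.3, while Krt19 went from 24.5 to 70.6 and Krt7 from 9.55 to 76.3. The part of these cell types in the differences of the members was not tested.

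**Figure D4:**
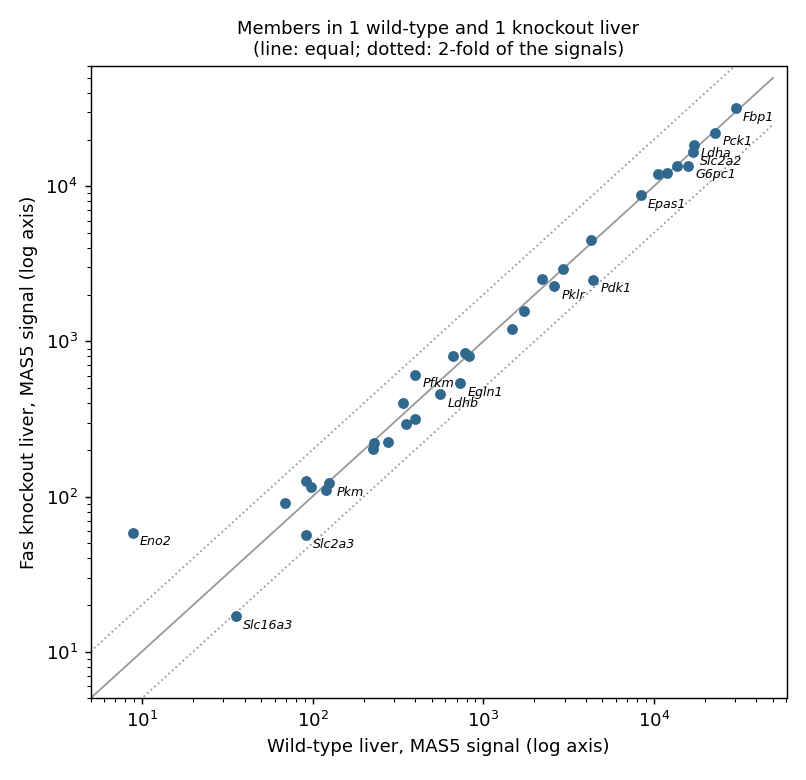
Signal of each member in 1 wild-type liver (x) and 1 Fas knockout liver (y), both on log axes, with a solid line for equal signals and dotted lines at 2-fold of the signals. Fbp1, Pck1, Ldha, Slc2a2 and G6pc1 lie near the line, Pdk1 lies below it, and Eno2 and Slc16a3 lie at the dim end.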

How the data were processed

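Expression was measured in 7 samples on Affymetrix arrays. The deposited values are linear intensity values, and the tool the authors used was MAS5, per the submitters' processing notes, with version and settings not given in the sources used here. Control probe sets were dropped, and a gene was read from the probe set of that symbol alone with the highest mean signal, one marked _x_at only where there was no other. Symbols came from the platform annotation. Signals were converted here to log2(signal + c), with c the 25th percentile of the table (12.6 human, 20.5 mouse), and a gene entered a comparison only if its signal exceeded the array median on 1 or more of the arrays compared. The 5 human arrays were fitted in limma 3.58.1 (R 4.3.3) with line and knockdown as terms (2 residual degrees of freedom), a trended prior variance (5.78 prior degrees of freedom) and Benjamini-Hochberg adjustment over all genes. A second fit added their interaction (1 residual degree of freedom). The fit was tested on simulated data. Comparisons of 1 array with 1 array were counted by size. Promoter windows came from a RefSeq table.

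Signals on every array are given for members called or past a size threshold and for the isoenzyme families, and at most 4 genes of each other list per comparison, those with the largest difference. The members and lists were chosen with earlier results of these data known. Alternatives were other pseudocounts, quantile normalization, equal medians, other filters and probe set rules, no variance trend, no line term, a 1.5-fold threshold and leaving out each array. The comparison with genes of the brightest 5%, and the count over genes above the median in both lines, were chosen after seeing the data. Tables and figures were made in Python 3.11.15 (matplotlib 3.10.9, numpy 2.4.6, pandas 2.3.3).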

Additional observations from a re-analysis of the deposited data

How the results depend on the processing

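The number of arrays limits every value: with 1 array per group, single comparisons have no error. Over the 14 alternatives to the line fit the members called between HepG2 and HeyA8 numbered from 20 to 28 beside 27. It was lowest without HepG2 shRNA6 and 28 without HeyA8 shRNA4, with the larger pseudocount and under quantile normalization. Called in every alternative that tested them were 15 members (SLC2A1, SLC2A2, SLC2A3, HK1, PFKM, PFKP, PFKFB3, ALDOA, ALDOC, PKLR, LDHB, VEGFA, BNIP3L, NDRG1 and EPAS1), PKLR in 13, since the stricter filter removes it, and the others in 14. Of these, SLC2A2, PKLR, HK1 and LDHB were kept in the main fit through 1 line alone, so their calls are not independent of the filter. The main fit called 58.0% of all genes, and the shares of all genes under the alternatives are not given here. The common knockdown effect and its difference between lines gave 0 members in every alternative that could be fitted; leaving out an array left no residual degree of freedom for the difference.

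Members past the size threshold numbered 3 with shRNA4 in HeyA8, 3 with shRNA6 in HeyA8, 3 in HepG2 and 2 in liver at 1.5-fold, beside 0, 0, 1 and 0 at 2-fold. In HepG2 the 2-fold count was 2 with no filter, where the dim LDHB joined PCK1, 0 with the stricter filter, which removes PCK1, and 2 with averaged probe sets. In liver it was 1 with no filter, through the dim Eno2. No called member turned its direction between the lines, but uncalled ones did: ENO1 from -0.20 to 0.15 with averaged probe sets, and PGK1, ENO2, LDHA and EGLN1 when an array was left out. Low signals limit PCK1, G6PC1, FBP1 and EGLN3 in the human lines.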
